A study of Mus musculus with 24 samples.

Results

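The genes *Tslp*, *Il11*, *Hbegf*, *Inhba*, *Prl2c3*, *Arhgef4* and *Uchl1* are described here in primary brown and white preadipocytes that had been depleted of the long noncoding RNA H19. They are 7 of the 49452 genes in the deposited expression table, and they were selected on their measured difference between H19 knockdown and control in brown cells, as signalling genes with some of the largest increases at day 0 (d0) or day 3 (d3). Those brown differences are given below as description, without a test. The white cells and the change from d0 to d3 in white cells were not used to choose them and were tested.

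RNA was sequenced from 24 libraries of stromal vascular cells from the interscapular brown (BAT) or epididymal white (vWAT) fat of male C57BL/6 mice 6 to 8 weeks old, with BAT of several mice pooled where needed. Cells received a non-targeting control siRNA (siCtrl) or an siRNA against H19 (siH19) by nucleofection and were harvested before (d0) or 3 days into (d3) adipogenic differentiation, with 3 libraries in each of the 8 groups. Cells of both arms had been nucleofected, and 1 siRNA sequence was used against H19, so an effect of the oligo other than on H19 cannot be told apart from one of H19. The induction media differed between depots, with indomethacin and triiodothyronine named for BAT cells alone. The library labels carried one series name for BAT and another for vWAT, so that depot and label series cannot be told apart. Nothing in the labels says that the 3 libraries of a group came from separate animals or cultures, and p-values measure only the spread between these libraries. These are bulk samples, in which fewer cells of a type and less RNA per cell cannot be told apart.

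Adipocyte precursors lie in the stromal vascular fraction of fat, secrete cytokines and growth factors, and lose many of these products once they commit to the adipocyte fate. Most of them encode secreted or shed ligands. Thymic stromal lymphopoietin (*Tslp*) acts through the Crlf2 and Il7r chains, interleukin 11 (*Il11*) through Il11ra1 and the shared chain Il6st, heparin-binding EGF-like growth factor (*Hbegf*) through Egfr and Erbb4, and the inhibin beta A chain (*Inhba*) pairs with itself to form activin A, which acts through Acvr1b and type II activin receptors on Smad2 and Smad3. *Prl2c3* belongs to the proliferins, prolactin-like hormones best known from the placenta. The other two genes work inside the cell: *Arhgef4* encodes an exchange factor for the small GTPases Rac1 and Cdc42, and *Uchl1* a ubiquitin hydrolase that is abundant in neurons.

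H19, a maternally expressed imprinted RNA transcribed from chr7:142575529-142578143 on the minus strand (GRCm38), was lower in every siH19 library than in every siCtrl library of its depot and day. The labels of the knockdown libraries carry the number 3 after siH19, while the study's methods name the oligo siH19 with a supplier's number that its siRNA list does not repeat. The guide strands listed as siH19 and siH19#3 are shown, because every comparison below rests on the oligo used. Capitals mark the seed (bases 2 to 8). The target of the oligo listed as siH19 lies at chr7:142576255-142576273 in exon 4 of an annotated H19 transcript, and that of siH19#3 spans the junction of exons 2 and 3.
siH19 guide: uCUUGAUUcagaacgagacgg
siH19#3 guide: uGGUGUUCaagaaggcuggat
H19 stood at 108, 160.4 and 122 FPKM (fragments for each kilobase of a transcript, relative to library size) in BAT siCtrl cells at d0 and at 2.82, 5.20 and 5.05 FPKM after siH19. At d3 it stood at 99.7, 86.4 and 83.2 FPKM in BAT siCtrl cells and at 12.04, 12.1 and 16.9 FPKM after siH19. White cells held less H19: 12.3, 11.3 and 11.6 FPKM at d0 against 1.23, 0.63 and 1.76 FPKM after siH19, and 8.67, 8.19 and 8.90 FPKM at d3 against 0.327, 0.291 and 0.966 FPKM. The difference passed the test in BAT at d0 and d3 (limma, adjusted p = 0.00225 and 0.00132) and in vWAT at d0 (adjusted p = 0.0046). In vWAT at d3 all siH19 libraries were under 1 FPKM. H19 entered that fit only through its siCtrl libraries, so its difference and its call there are a description. That call was kept in 3 of the 6 fits that left out 1 library and was lost at a pseudocount of 0.1.

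In BAT siCtrl precursors at d0, *Inhba* had the highest level of the 7 genes at 168 ± 6.80 FPKM (SD, n = 3), followed by *Tslp* at 46.9 ± 2.39, *Uchl1* at 24.9 ± 10.5, *Hbegf* at 18.1 ± 0.870, *Il11* at 13.9 ± 0.241, *Prl2c3* at 2.62 ± 0.783 and *Arhgef4* at 1.62 ± 1.59 FPKM. FPKM are scaled to transcript length, so these levels can be set beside each other. The libraries of *Uchl1* and *Hbegf*, and those of *Prl2c3* and *Arhgef4*, overlapped in this order, whereas the other neighbours did not.

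**Figure D1:**
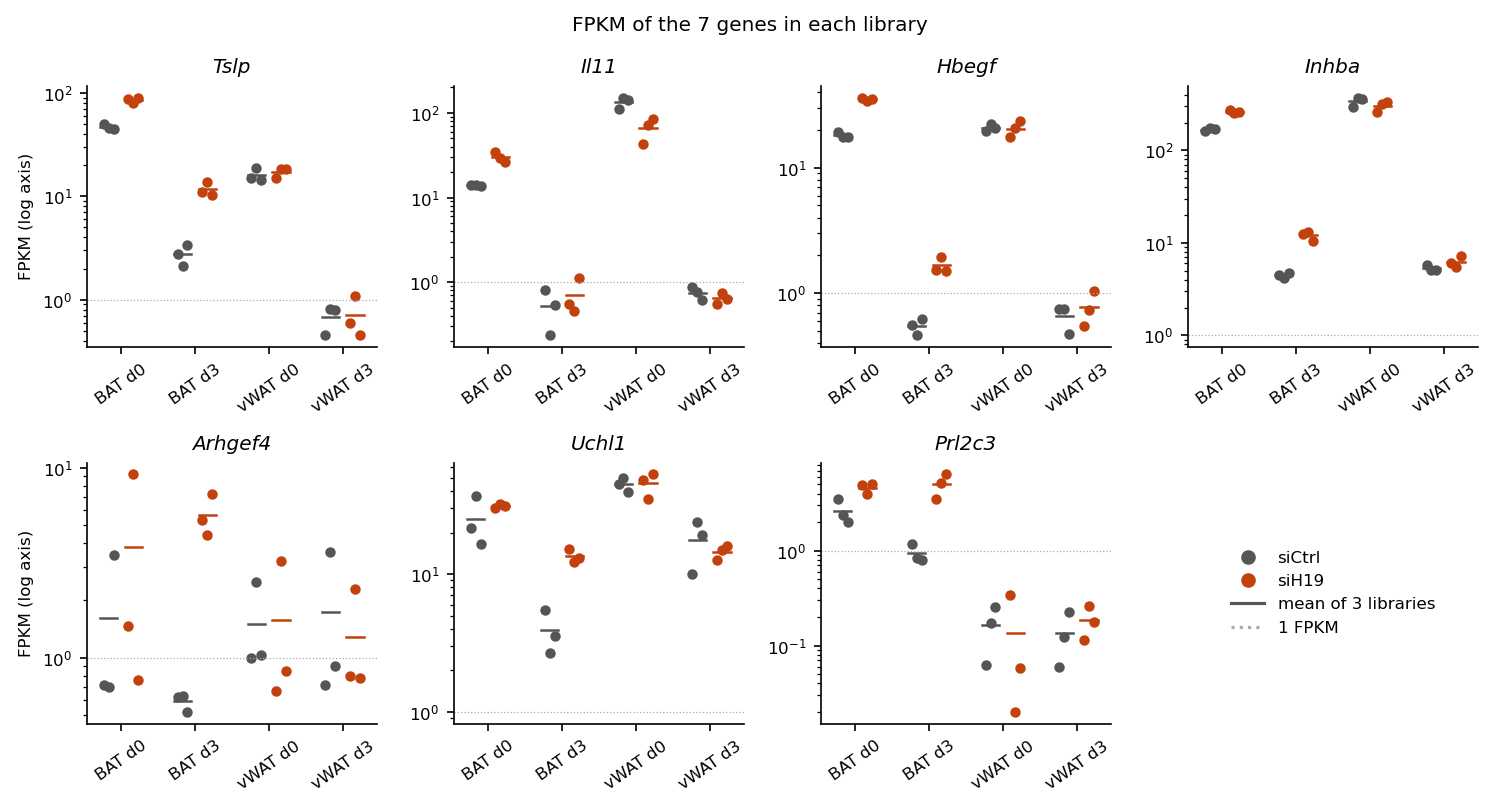
FPKM of each of the 7 genes on a log axis in the 8 groups of depot, siRNA and day, 1 point per library and a bar at the mean of each group. In BAT at d0, 5 genes, and in BAT at d3, 6 genes, lie higher in all siH19 than in all siCtrl libraries; Prl2c3 lies below 0.35 FPKM in all vWAT libraries, and its 1 value listed at 0 is drawn at the bottom of the axis.

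*Tslp* lies at chr18:32815383-32819799 on the plus strand. In BAT cells at d0, it was at 49.6, 46.1 and 44.97 FPKM with siCtrl and at 86.8, 79.9 and 89.3 FPKM with siH19. Every siH19 library was higher than every siCtrl library, and the ratio of the means was 1.82. At d3 it was at 2.77, 2.11 and 3.37 FPKM with siCtrl and at 10.9, 13.8 and 10.3 FPKM with siH19. The groups again did not overlap, and the ratio had widened to 4.25 at a much lower level. In vWAT cells at d0, *Tslp* stood at 15.0, 18.9 and 14.4 FPKM with siCtrl and 14.9, 18.1 and 18.5 FPKM with siH19. These groups overlapped, and the difference in log2(FPKM + 1), the scale of all differences given here, was 0.09 with a 95% interval from -0.21 to 0.39 (limma, adjusted p = 0.761). At d3, *Tslp* had nearly vanished from white cells, with 0.454, 0.806 and 0.794 FPKM in siCtrl and 0.598, 1.09 and 0.453 FPKM in siH19 libraries. A long noncoding gene on the minus strand overlaps the *Tslp* locus.

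*Il11*, on chr7:4772373-4782857 of the minus strand, is the gene of the 7 whose brown and white values lay on opposite sides. In BAT cells at d0 it was at 14.1, 13.9 and 13.6 FPKM with siCtrl and at 34.3, 29.5 and 26.2 FPKM with siH19, a ratio of means of 2.16. In vWAT cells at d0 it was at 110.3, 150.4 and 143.7 FPKM with siCtrl and at 42.8, 71.7 and 85.0 FPKM with siH19, a ratio of 0.493. All 3 siH19 libraries were above the siCtrl libraries in BAT and all 3 were below them in vWAT. The vWAT difference was -1.05 (SE 0.25, 95% interval -1.66 to -0.44), but it did not pass the test across all genes (limma, adjusted p = 0.104). With the spread estimated from all 24 libraries it did pass (limma, adjusted p = 0.00206), and over all alternatives the adjusted p ran from 0.00206 to 0.27. At d3, *Il11* was near the lower limit of the table in every group. It stood at 0.804, 0.235 and 0.535 FPKM in BAT siCtrl and 0.549, 0.461 and 1.12 FPKM in BAT siH19 cells, which overlapped. The vWAT libraries at d3 read 0.878, 0.769 and 0.613 FPKM with siCtrl and 0.552, 0.744 and 0.636 FPKM with siH19, which overlapped as well.

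*Hbegf*, on chr18:36504929-36515805 of the minus strand, was at 19.1, 17.7 and 17.5 FPKM in BAT siCtrl cells at d0 and at 36.0, 34.1 and 34.995 FPKM after siH19. The ratio of the means was 1.93. At d3 the level was at 0.563, 0.462 and 0.626 FPKM with siCtrl and at 1.54, 1.96 and 1.499 FPKM with siH19. The groups did not overlap on either day, and the d3 ratio of 3.03 belonged to levels below 2 FPKM. White cells at d0 held *Hbegf* at a level near that of brown siCtrl cells, with 19.5, 22.1 and 20.8 FPKM after siCtrl and 17.4, 20.6 and 23.3 FPKM after siH19. The groups overlapped and the difference was -0.03 with a 95% interval from -0.30 to 0.23 (limma, adjusted p = 0.906). At d3, *Hbegf* was at 0.744, 0.745 and 0.476 FPKM in vWAT siCtrl and 0.547, 0.737 and 1.04 FPKM in vWAT siH19 cells.

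*Inhba*, on chr13:16011851-16027211 of the plus strand, was at 160.2, 173 and 169.9 FPKM in BAT siCtrl cells at d0 and at 271, 256 and 257 FPKM after siH19, a ratio of means of 1.56. At d3 it was at 4.54, 4.19 and 4.77 FPKM with siCtrl and at 12.5, 13.2 and 10.5 FPKM with siH19, a ratio of 2.69. All siH19 libraries were above all siCtrl libraries on both days. In vWAT at d0 the siCtrl libraries read 295, 369.7 and 357 FPKM and the siH19 libraries 261, 319.6 and 335 FPKM. The groups overlapped and the difference was -0.16 with a 95% interval from -0.45 to 0.13 (limma, adjusted p = 0.544). At d3 the vWAT libraries were at 5.73, 5.12 and 5.04 FPKM with siCtrl and 6.09, 5.49 and 7.16 FPKM with siH19, and the difference was 0.20 with an interval from -0.05 to 0.45 (limma, adjusted p = 0.589). An antisense gene and a pseudogene, both on the minus strand, overlap the *Inhba* locus.

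*Prl2c3*, on chr13:12790822-12800078 of the minus strand, was found almost entirely in brown cells. In BAT at d0 it was at 3.497, 2.38 and 1.99 FPKM with siCtrl and at 4.92, 3.92 and 5.02 FPKM with siH19, a ratio of means of 1.76. At d3 it was at 1.19, 0.845 and 0.795 FPKM with siCtrl and at 3.54, 5.21 and 6.39 FPKM with siH19, a ratio of 5.35. The groups did not overlap on either day, and the siH19 cells of d3 held as much of the transcript as those of d0. In vWAT no library exceeded 0.345 FPKM, so *Prl2c3* did not enter the white comparisons.

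The *Prl2c3* value is uncertain because its reads can come from its copies, and the table gives it a row shared with *Prl2c4*. The coding sequence matched *Prl2c2* at 672 of 675 positions (99.6%) and *Prl2c5* at 648 of 675 aligned positions (96.0%). Of the 783 stretches of 75 bases in the *Prl2c3* transcript, 547 (69.9%) were also found in *Prl2c2* and 16 (2.04%) in *Prl2c5*. At 100 bases, 472 of 758 stretches (62.3%) were shared with *Prl2c2* and 0 with *Prl2c5*. A stretch of 90 coding bases, from base 287 to base 376 counted from the start codon, is shown to let the copies be compared. Capitals mark the 8 positions that differ among the 3 genes, of which 1 differs between *Prl2c3* and *Prl2c2*.
Prl2c3: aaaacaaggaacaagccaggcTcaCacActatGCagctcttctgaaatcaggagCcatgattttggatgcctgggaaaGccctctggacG
Prl2c2: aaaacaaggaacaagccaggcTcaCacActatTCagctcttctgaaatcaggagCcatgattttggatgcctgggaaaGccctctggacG
Prl2c5: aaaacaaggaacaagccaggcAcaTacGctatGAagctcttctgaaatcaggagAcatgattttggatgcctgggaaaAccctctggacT
In brown cells the means of both copies were higher with siH19 than with siCtrl on both days. *Prl2c2* averaged 3.31 ± 0.416 FPKM in BAT siCtrl and 5.95 ± 1.48 FPKM in BAT siH19 cells at d0, and 1.38 ± 0.320 and 5.39 ± 1.14 FPKM at d3. *Prl2c5* was lower, at 0.736 ± 0.311 FPKM with siCtrl and 1.38 ± 0.778 FPKM with siH19 in BAT at d0, and at 0.584 ± 0.365 FPKM with siCtrl and 1.81 ± 0.146 FPKM with siH19 at d3. Because reads are shared and *Prl2c3* was selected on these comparisons, the values of the copies are a description, and their results in the fits are not read as a test.

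*Arhgef4* and *Uchl1* varied widely between libraries of a group. *Arhgef4*, on chr1:34678188-34813309 of the plus strand, was at 0.719, 0.696 and 3.46 FPKM in BAT siCtrl cells at d0 and at 1.47, 9.21 and 0.765 FPKM after siH19. The groups overlapped, and the ratio of means of 2.35 rested on the siH19 library at 9.21 FPKM, without which the difference in log2(FPKM + 1) went from 0.59 to -0.17. At d3 the picture was even: 0.621, 0.628 and 0.517 FPKM with siCtrl and 5.33, 4.40 and 7.22 FPKM with siH19, a ratio of 9.59 and the widest of the 7 genes. In vWAT, replicate 2 was well above the other two libraries in each of the 4 groups, as it was in BAT siH19 cells at d0, with 1.00, 2.49 and 1.04 FPKM in siCtrl and 0.670, 3.23 and 0.845 FPKM in siH19 cells at d0. The difference there was -0.04 with a 95% interval from -0.99 to 0.91 (limma, adjusted p = 0.97), an interval that also holds 0.59. At d3 the vWAT libraries read 0.714, 3.59 and 0.902 FPKM with siCtrl and 0.801, 2.28 and 0.783 FPKM with siH19. The gene overlaps *Fam168b*, an antisense gene and 2 pseudogenes, and the table holds a second identifier for the same symbol, so its level is uncertain.

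*Uchl1*, on chr5:66676091-66687234 of the plus strand, was at 21.4, 36.8 and 16.6 FPKM in BAT siCtrl cells at d0 and at 30.2, 32.4 and 31.2 FPKM after siH19. These groups overlapped. At d3 it was at 5.48, 2.68 and 3.54 FPKM with siCtrl and at 15.1, 12.3 and 13.0 FPKM with siH19, without overlap and with a ratio of means of 3.46. White cells had the highest level of *Uchl1*, with 44.9, 50.1 and 39.5 FPKM with siCtrl and 48.5, 34.9 and 52.9 FPKM with siH19 at d0. The difference was 0.00 with a 95% interval from -0.39 to 0.39 (limma, adjusted p = 0.994). At d3 the white libraries read 10.02, 23.9 and 19.4 FPKM with siCtrl and 12.6, 14.9 and 15.9 FPKM with siH19, a difference of -0.20 with an interval from -0.90 to 0.50 (limma, adjusted p = 0.87). An antisense gene, *Uchl1os*, overlaps the locus.

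In BAT at d0, siH19 and siCtrl libraries were fully separated, with siH19 higher, for 5 of 7 members, the exceptions being *Arhgef4* and *Uchl1*. Of the 12651 genes tested 10.6% were so separated. In BAT at d3 this held for 6 of 7, *Il11* being the exception, and for 24.2% of 12500 genes tested. The choice of the genes fixed these counts, and nothing is read from them. By size of the difference, *Il11* ranked 36, *Hbegf* 52, *Tslp* 62, *Prl2c3* 97, *Inhba* 101, *Arhgef4* 120 and *Uchl1* 362 among genes tested in BAT at d0, where 78 genes (0.617%) passed the test as higher and 167 (1.32%) as lower. In BAT at d3, *Arhgef4* ranked 15, *Tslp* 21, *Prl2c3* 22, *Uchl1* 23, *Inhba* 43 and *Hbegf* 208, where 799 genes (6.39%) passed as higher and 272 (2.18%) as lower. With trimmed-mean scaling between libraries, that split was 586 higher and 471 lower at d3, and at d0 it went from 78 higher and 167 lower to 106 and 134.

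In vWAT at d0, none of the 6 members that entered the fit passed the test between siH19 and siCtrl in limma at an adjusted p of 0.05 and a 1.3-fold difference, where 200 of 13063 genes (1.53%) did; 1 of the 7 had all siH19 libraries below (16.2% of genes tested) and 0 had them all above (8.36%). In vWAT at d3, 0 of the 2 members that entered the fit passed, where 4 of 13097 genes (0.0305%) did and 1315 genes had an unadjusted p under 0.05. No member had all siH19 libraries above (7.67% of genes tested) or all below (8.57%) at d3. Depots were in different media and label series, so the brown and white differences are given side by side and were not tested against each other.

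**Figure D2:**
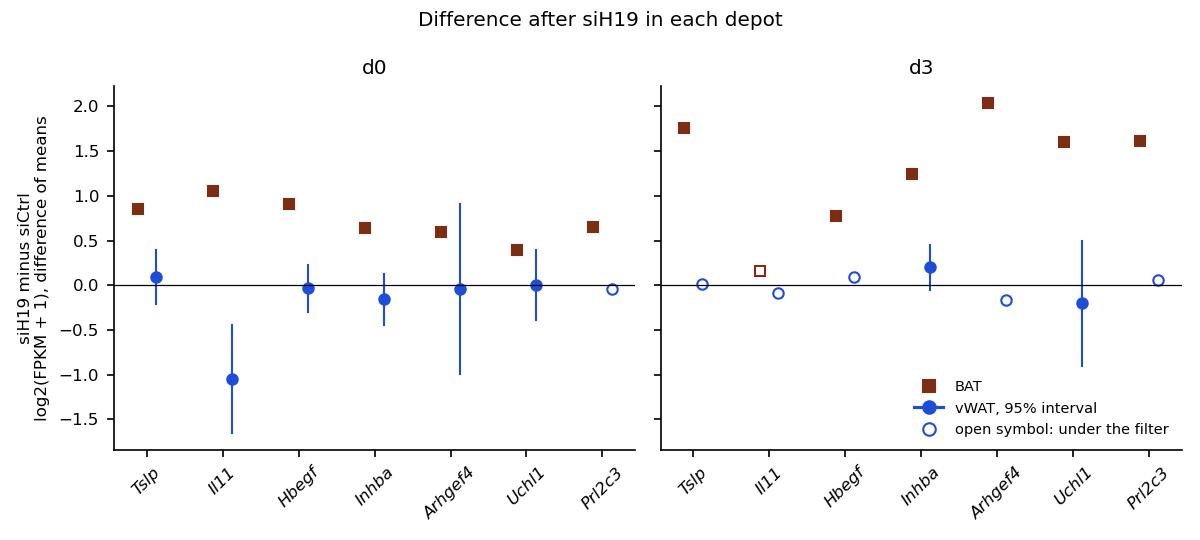
Difference between siH19 and siCtrl in log2(FPKM + 1) for each of the 7 genes in BAT and vWAT at d0 and d3, with 95% intervals for vWAT and open symbols for genes under the filter on low values. The BAT points lie above 0, the Il11 point of vWAT at d0 lies at -1.05, and the other vWAT intervals include 0.

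All 7 genes were lower at d3 than at d0 in every library of BAT siCtrl cells, where 43.2% of genes above the filter were, and 5 of 7 in BAT siH19 cells, where 37.3% were. *Hbegf*, *Inhba*, *Il11* and *Tslp* kept 3.04%, 2.68%, 3.78% and 5.87% of their d0 mean, *Uchl1* kept 15.6%, and *Prl2c3* and *Arhgef4* kept 36.0% and 36.3%. After siH19, *Tslp* kept 13.7%, *Hbegf* 4.76%, *Inhba* 4.63% and *Uchl1* 43.1%, whereas *Il11* kept 2.36%. *Prl2c3* stood at 109% and *Arhgef4* at 148% of the d0 mean. These brown values share their libraries with the choice of the genes and are given without a test.

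In white cells *Inhba* and *Uchl1* were above 1 FPKM on both days, so that their change with differentiation could be tested. In vWAT siCtrl cells *Inhba* changed by -5.76 (limma, adjusted p = 1.1e-07) and *Uchl1* by -1.36 (adjusted p = 0.00558), where 23.9% of all genes passed as lower. *Il11*, *Hbegf* and *Tslp* were under 1 FPKM in all 3 siCtrl libraries at d3 and entered the fit only through their d0 libraries, so their differences of -6.27, -3.72 and -3.34 are a description. The change of *Arhgef4* was 0.02 (limma, adjusted p = 0.963), and its libraries overlapped. In vWAT siH19 cells *Inhba* changed by -5.40 (limma, adjusted p = 3.04e-07) and *Uchl1* by -1.57 (adjusted p = 0.000176), where 24.5% of all genes passed as lower. *Il11*, *Hbegf* and *Tslp* again entered only through d0, with differences of -5.31, -3.59 and -3.42. The d3 means of *Il11* were 0.559% of d0 with siCtrl and 0.968% with siH19. Whether the fall differed between siRNAs was fitted as an interaction of day and siRNA, which 1.73% of genes passed and none of the 6 members that entered did. *Il11*, *Hbegf* and *Tslp* entered this fit through d0 too, so their interaction values are a description. That of *Il11* was 0.96 with a 95% interval from 0.30 to 1.62. With *Il11* near the lower limit at d3 (siRNA difference -0.09), this value mostly restates its d0 difference of -1.05 and does not show whether the fall differed.

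Receptors and partners of the ligands were measured in the same libraries. Crlf2, the specific chain of the TSLP receptor, averaged 32.0 ± 1.47 FPKM in BAT siCtrl and 36.3 ± 1.63 FPKM in BAT siH19 cells at d0, and 6.34 ± 1.01 and 9.21 ± 1.38 FPKM at d3. Its partner Il7r did not exceed 1.51 FPKM in any library. The *Il11* receptor chain Il11ra1 lay at 30.3 ± 1.47 FPKM and Il6st at 119.8 ± 10.5 FPKM in BAT siCtrl cells at d0. The *Hbegf* receptor Egfr stood at 38.5 ± 1.21 FPKM in BAT and 140.5 ± 6.13 FPKM in vWAT siCtrl cells at d0, while Erbb4 did not exceed 0.0655 FPKM. Adam17, a protease that sheds *Hbegf*, was at 47.4 ± 4.09 FPKM in BAT siCtrl cells at d0. No comparison of siH19 with siCtrl in which these receptors and partners were tested passed, Il7r being tested only in vWAT at d0 and Erbb4 in none. The nearest was the activin receptor Acvr1b in BAT at d3, at 5.03 ± 0.827 FPKM with siCtrl and 7.07 ± 0.437 FPKM with siH19 (limma, adjusted p = 0.0528).

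Other genes of each pathway, from lists that hold ligands, receptors, inhibitors and targets, were counted in the fits across all genes. In BAT at d0, where 0.617% of all genes passed as higher, 2 of the 19 tested genes of the EGF list did. They were the ligand *Ereg* (0.57, limma, adjusted p = 0.025) and the MAPK phosphatase *Dusp5* (0.48, adjusted p = 0.021). Both calls were lost when any 1 of the 6 libraries was left out. In the other lists none passed in either direction: 0 of 6 for the TSLP pathway, 0 of 10 for the IL-6 and IL-11 family, 0 of 15 for activin and inhibin, 0 of 13 for Rac and Cdc42 exchange factors and their effectors, 0 of 7 for ubiquitin hydrolases and 0 of 8 for AP-1 factors. Of the proliferin and prolactin list, leaving aside the copies *Prl2c2* and *Prl2c5*, the receptors *Prlr* and *Igf2r* were tested and did not pass. Without the proliferin and prolactin list, list medians ran from -0.04 (TSLP pathway) to 0.21 (AP-1 factors), against -0.03 over all genes.

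In BAT at d3 genes of several pathway lists passed as higher after siH19, and none in these lists passed as lower. Of all genes tested, 6.39% passed as higher and 2.18% as lower. With trimmed-mean scaling 586 genes passed as higher and 471 as lower. Of the activin and inhibin list, 5 of 16 tested genes passed as higher, with a list median of 0.23 against 0.05 over all genes. They were the beta B chain *Inhbb* (6.10 ± 0.761 FPKM with siCtrl, 13.9 ± 1.203 with siH19; limma, adjusted p = 0.00301), the activin-binding protein *Fst* (20.9 ± 0.777 and 32.0 ± 2.51 FPKM; adjusted p = 0.00426), the target *Ctgf* (71.8 ± 14.6 and 193.8 ± 19.2 FPKM; adjusted p = 0.00309), and the feedback genes *Skil* and *Smad7*. The other 11 did not pass, among them the receptor *Acvr1c*, whose mean was lower with siH19 (17.9 ± 2.84 and 13.1 ± 0.648 FPKM). In BAT at d0, where *Inhba* also differed, *Inhbb* (44.2 ± 0.894 and 44.1 ± 3.16 FPKM) and *Fst* (219.9 ± 12.5 and 216 ± 5.17 FPKM) were within the spread of their libraries. The calls of *Inhbb*, *Fst* and *Ctgf* held when each library was left out in turn, while *Skil* and *Smad7* were called in 2 and 1 of these 6 fits.

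Of the EGF list, 3 of 16 genes were called higher at d3, where 6.39% of all genes were. They were the receptor inhibitor *Errfi1* (31.6 ± 0.558 FPKM with siCtrl, 49.6 ± 4.84 with siH19; limma, adjusted p = 0.00431), the early-response gene *Ier3* (8.14 ± 1.41 and 14.5 ± 1.05 FPKM; adjusted p = 0.0094) and the ligand *Ereg* (0.730 ± 0.099 and 2.33 ± 0.248 FPKM). *Ereg* was under 1 FPKM in all siCtrl libraries and entered this fit only through its siH19 libraries, so its difference and its part in the count of 3 are a description. Of the IL-6 and IL-11 family, 3 of 10 passed as higher: the oncostatin receptor *Osmr* (10.2 ± 1.21 and 16.9 ± 1.00 FPKM; limma, adjusted p = 0.00662), the ligand *Clcf1* (5.81 ± 0.370 and 9.01 ± 0.793 FPKM; adjusted p = 0.0102) and *Il6* (0.46, adjusted p = 0.0254), the last called in 2 of 6 fits with 1 library left out. *Fosl1* and *Fosl2*, subunits of the transcription factor AP-1, were the 2 of 7 AP-1 genes that passed, at 0.85 (limma, adjusted p = 0.00195) and 0.49 (adjusted p = 0.0121). Of the proliferin and prolactin list, leaving aside *Prl2c2* and *Prl2c5*, which share sequence with *Prl2c3*, the receptors *Prlr* and *Igf2r* were tested and did not pass. None passed of the TSLP pathway (0 of 6), the Rac and Cdc42 genes (0 of 12) or the ubiquitin hydrolases (0 of 7).

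In vWAT at d0, where 1.53% of all genes passed, 6 genes of these lists did. The TSLP target *Cish* (-0.53, limma, adjusted p = 0.0244) and the MAPK genes *Spry4* (-0.40, adjusted p = 0.0339) and *Dusp4* (-0.40, adjusted p = 0.0276) passed as lower, 1 of 7 and 2 of 21 tested. Of the activin list 2 of 15 passed as higher, *Ctgf* (0.58, limma, adjusted p = 0.0157) and *Smad6* (0.50, adjusted p = 0.0492), and of the AP-1 list 1 of 9, *Jund* (0.43, adjusted p = 0.0347). None of these 6 calls held in all fits with 1 library left out. None of the IL-6 and IL-11 family (11 tested), Rac and Cdc42 genes (13), ubiquitin hydrolases (7) or proliferin and prolactin genes (2) passed, and in vWAT at d3 no gene of any pathway list did.

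**Figure D3:**
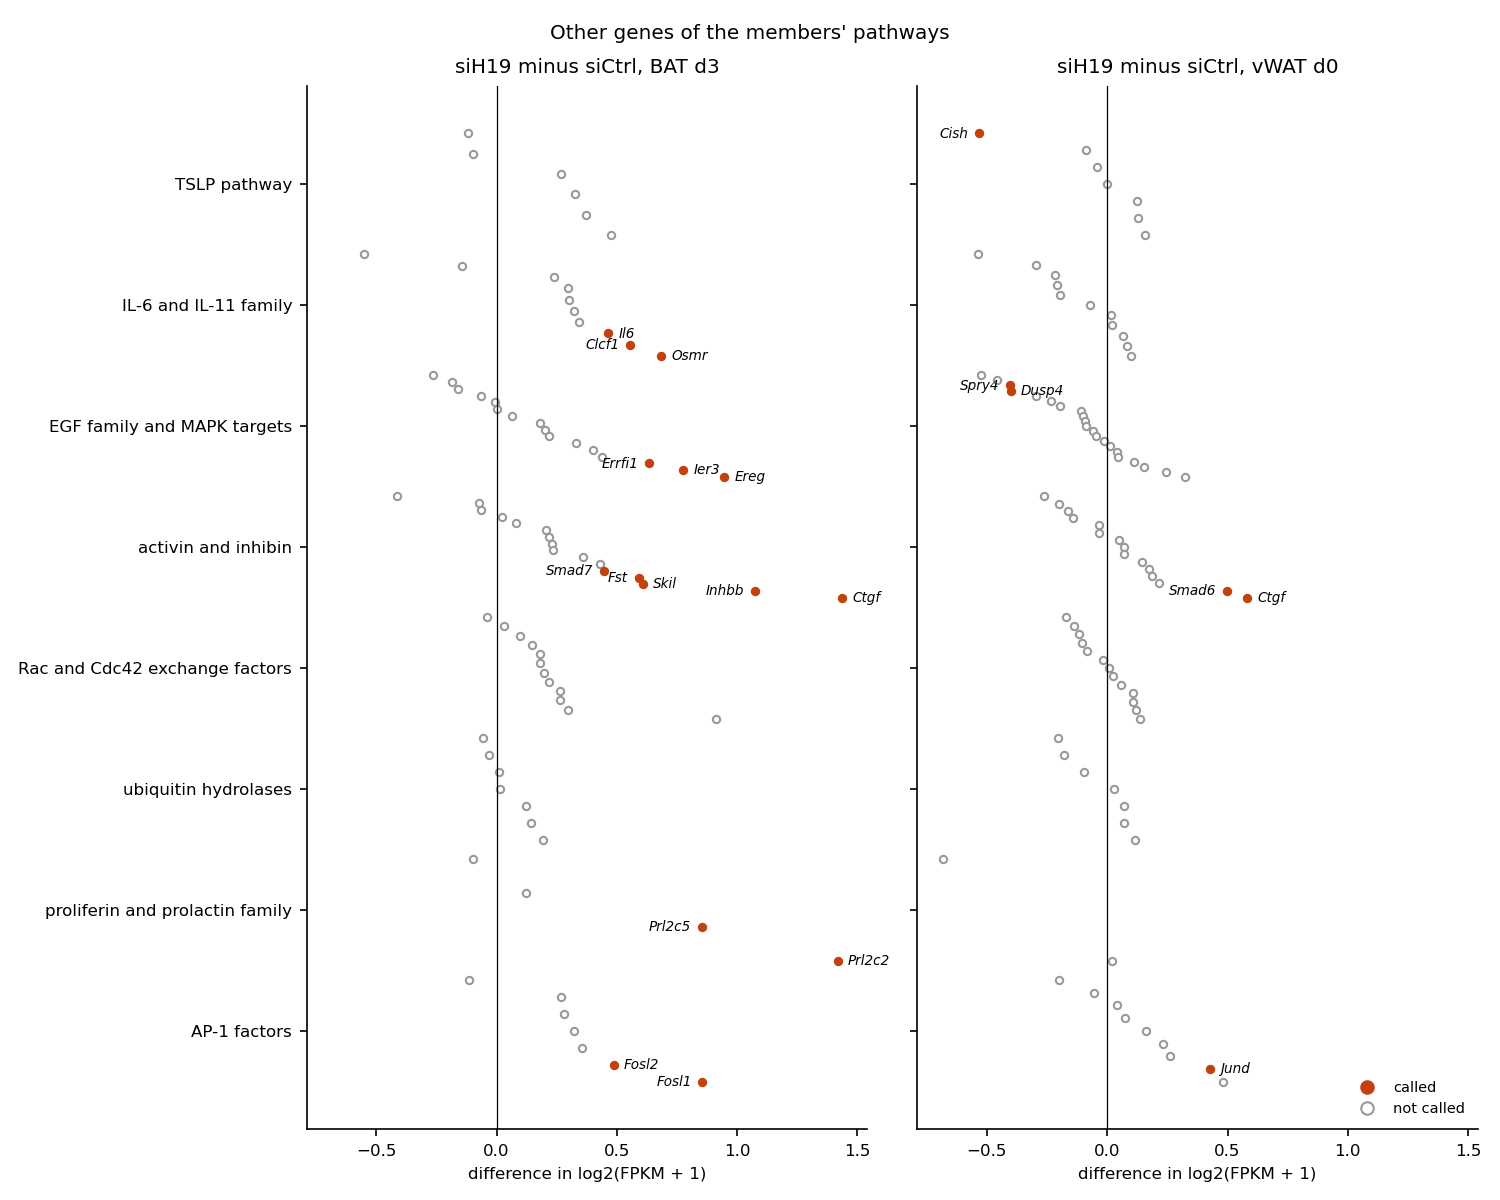
Difference between siH19 and siCtrl in log2(FPKM + 1) for the other genes of each pathway list in BAT at d3 and vWAT at d0, 1 point per gene, filled where the gene passed the test. In BAT at d3 all filled points lie to the right of 0 (Prl2c2 and Prl2c5 share sequence with the selected Prl2c3), 5 of them in the activin and inhibin list, and in vWAT at d0 filled points lie on both sides. The points of Prl2c2, Prl2c5 and Ereg in BAT at d3 are a description.

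Sequence before the transcription start was read from RefSeq (GRCm38.p6) for 5 of the genes, and 250 bases are shown for *Il11*, *Prl2c3* and *Inhba*, the former pair because they hold a match to the AP-1 element and *Inhba* as a member without one. Capitals mark the AP-1 match. The motif searched was TGANTCA on both strands, present in 6.75% of 32851 windows of the same length.
Il11, chr7:4778142-4778391, minus strand: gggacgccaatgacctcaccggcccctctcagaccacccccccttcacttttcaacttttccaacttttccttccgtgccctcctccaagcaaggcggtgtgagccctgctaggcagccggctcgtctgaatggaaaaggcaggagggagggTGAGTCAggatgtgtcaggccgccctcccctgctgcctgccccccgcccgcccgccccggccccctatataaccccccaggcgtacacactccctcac
Prl2c3, chr13:12800080-12800329, minus strand: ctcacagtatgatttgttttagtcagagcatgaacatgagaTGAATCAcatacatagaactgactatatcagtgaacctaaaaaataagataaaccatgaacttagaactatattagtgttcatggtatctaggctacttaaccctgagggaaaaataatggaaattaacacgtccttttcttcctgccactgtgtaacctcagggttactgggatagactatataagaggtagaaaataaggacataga
Inhba, chr13:16011601-16011850, plus strand: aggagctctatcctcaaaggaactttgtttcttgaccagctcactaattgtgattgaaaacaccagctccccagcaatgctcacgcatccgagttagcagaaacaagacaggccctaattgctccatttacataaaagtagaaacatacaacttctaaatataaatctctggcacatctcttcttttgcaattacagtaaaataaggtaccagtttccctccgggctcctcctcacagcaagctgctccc
The match TGAGTCA lay 98 to 92 bases before the second annotated start of *Il11*, and TGAATCA lay 209 to 203 bases before that of *Prl2c3*. The windows of *Uchl1*, of both starts of *Arhgef4* and of the other start of *Il11* held none. A TATA-like run (TATANA, in 22.6% of windows) lay 33 to 28 bases before the *Il11* start, 30 to 25 before that of *Prl2c3* and 91 to 86 before that of *Inhba*. The cAMP response element TGACGTCA, in 1.55% of windows, was in no window of a member. A match is a description of these letters only.

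Over all 24 libraries, the genes whose log2(FPKM + 1) ran most like that of a member were *Lmna* and *Rcan1* for *Tslp* (Pearson r = 0.985 and 0.980), *Bhlhe40* and *Clcf1* for *Il11* (0.993 and 0.989), *Tll1* and *Gdnf* for *Hbegf* (0.994 and 0.993) and *Ereg* and *Ptgs2* for *Inhba* (0.995 and 0.994). *Uchl1* ran most like *Nap1l1* and *S100a16* (0.951 and 0.940), and *Prl2c3* like its copy *Prl2c2* and *Rbm24* (0.973 and 0.939). *Arhgef4* had no close match, with *Dnmbp* at 0.633 and *Plekha3* at 0.629. Among the members, *Hbegf* and *Inhba* ran together at 0.988, *Il11* and *Inhba* at 0.961, *Il11* and *Hbegf* at 0.924 and *Tslp* and *Hbegf* at 0.890. The libraries share depot, day and siRNA, and what these share in each r was not tested.

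Marker genes of cell types moved with the siRNA in the same libraries. The summed level of the precursor markers ran from 742 to 819 FPKM with siCtrl and from 873 to 895 FPKM with siH19 in BAT at d0, and from 281 to 322 FPKM and from 507 to 538 FPKM at d3. Most of each of these sums was *Ly6a*, which at d3 went from 252 ± 15.4 to 456 ± 20.0 FPKM. In vWAT siCtrl cells *Ly6a* rose from 321 ± 35.9 FPKM at d0 to 535 ± 42.3 FPKM at d3, while 5 of the 8 markers passed as lower. At d0 none of the 8 markers passed. *Ly6a*, the marker of highest level, went from 543 ± 40.6 to 644 ± 11.1 FPKM. *Cd34*, *Tgfb2*, *Gata2*, *Dlk1* and *Runx2* also had higher means with siH19, while *Pdgfra* (50.1 ± 2.21 and 47.6 ± 3.15 FPKM) and *Pdgfrb* (115 ± 1.37 and 107.8 ± 0.956 FPKM) had lower means. At d3 6 of 7 tested precursor markers passed as higher, of which *Ly6a* and *Gata2* held in all fits with 1 library left out. Those that passed were *Pdgfra*, *Dlk1*, *Ly6a*, *Runx2*, *Gata2* and *Tgfb2*. The study had already named these genes as staying high in brown cells after the knockdown. The list thus holds genes with a known outcome, so the count is a description and not an independent test. Adipocyte markers summed to 3135 to 3408 FPKM with siCtrl and 1583 to 2115 FPKM with siH19 in BAT at d0. There 5 of 7 passed as lower, where 1.32% of all genes did, each in 4 or fewer of the 6 fits with 1 library left out. At d3 they summed to 37576 to 39282 FPKM and 34248 to 36568 FPKM, with 0 of 7 past the test. Macrophage markers were lower in BAT siH19 cells, at 98.8 to 99.7 against 132 to 164 FPKM at d0 and 82.4 to 94.1 against 134 to 165 FPKM at d3. Of 5 tested, *Lyz2* and *C1qa* passed as lower at d0, where 1.32% of all genes did, each in 1 of the 6 fits with 1 library left out. At d3, where 2.18% of all genes passed as lower, *Lyz2* and *C1qa* did, each in 6 of these fits. *Adgre1* (1.87 ± 0.168 and 0.816 ± 0.164 FPKM) was under 1 FPKM in all siH19 libraries at d3. It entered that fit only through its siCtrl libraries, so its lower value is a description. In vWAT at d0 adipocyte markers were also lower with siH19, at 2412 to 2721 against 4087 to 4095 FPKM. There 5 of 7 passed as lower, where 1.53% of all genes passed either way. In vWAT at d3 their sum was higher with siH19, at 21209 to 22386 against 19221 to 20208 FPKM, with 0 of 7 past the test. All 7 passed the interaction of day and siRNA in vWAT as higher, where 1.73% of all genes passed either way. The epithelial markers *Upk3b*, *Epcam*, *Krt5* and *Krt14* were under 0.1 FPKM in BAT libraries, and the summed neural markers did not exceed 4.05 FPKM. The mesothelial and epithelial marker *Krt19* passed as higher in BAT at d0 (0.68, limma, adjusted p = 0.0307) and the muscle marker *Des* in BAT at d3 (0.44, adjusted p = 0.0457), and both calls were lost when any 1 library was left out. Myoblast markers summed to 31.6 to 52.1 FPKM with siCtrl and 43.9 to 65.8 FPKM with siH19 in BAT at d0, which overlapped. At d3 the sums were 26.7 to 33.1 and 36.9 to 45.6 FPKM, which did not. Of these markers, *Myog* (14.3 ± 4.50 and 21.2 ± 6.07 FPKM at d0) and *Myod1* (3.47 ± 0.989 and 6.62 ± 1.34 FPKM) passed on neither day. Both were under 0.1 FPKM in every vWAT library. The part of these markers in the levels of the 7 genes was not tested.

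**Figure D4:**
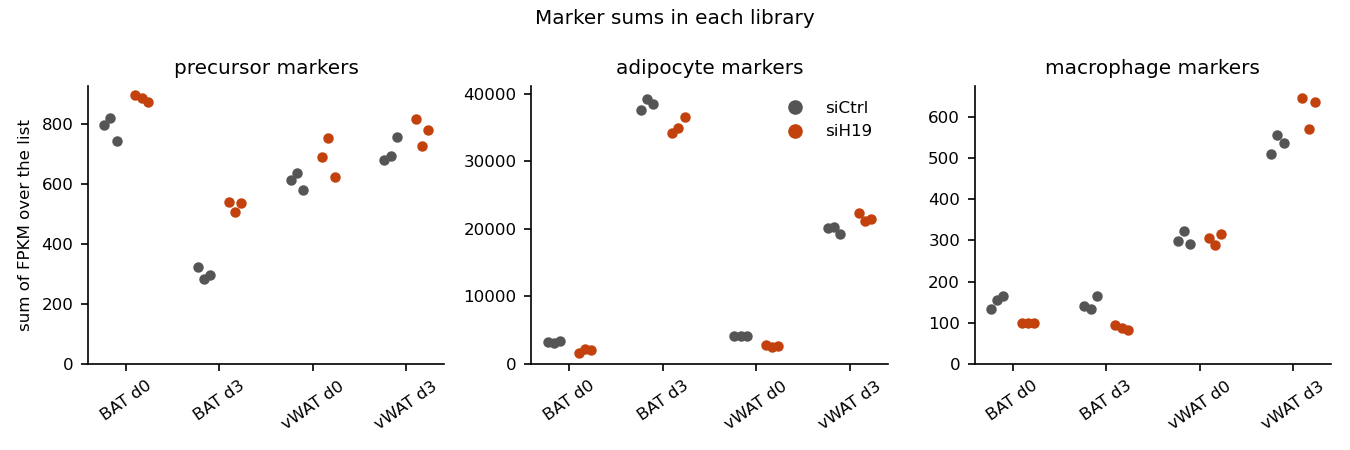
Summed FPKM of precursor, adipocyte and macrophage marker lists on linear axes from 0 in the 8 groups, 1 point per library. In BAT at d3 the precursor sum lies between 507 and 538 FPKM with siH19 and between 281 and 322 FPKM with siCtrl, and most of it is Ly6a.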

How the data were processed

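Poly-A RNA was sequenced from 24 libraries. The authors trimmed reads, aligned them to GRCm38 with TopHat2 and quantified Ensembl genes with Cufflinks, and they deposited 1 table with 1 column per library. Its unit is not named in the file and was taken as FPKM from the methods. The FPKM that the authors deposited are normalised to transcript length and to mapped fragments. The labels state paired-end reads and the methods single-end reads, and the version of Cufflinks differs between them. Depth was estimated from the smallest steps of the values at 17900000 to 25200000 fragments per library. A fragment count is not used here, and no count model was fitted. Of 49452 genes, 12311 to 13125 per library reached 1 FPKM.

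Groups and replicate numbers came from the sample labels, and 0 columns of samples were left unused. Replicates correlated at r = 0.988 to 0.991 and none were identical. Genes with at least 1 FPKM in at least 3 libraries of a comparison were tested on log2(FPKM + 1) with limma 3.58.1 in R 4.3.3, with an intensity trend and Benjamini-Hochberg adjustment over all genes tested. The call was an adjusted p under 0.05 and at least 1.3-fold on this scale, which understates changes of low genes, and for the interaction of day and siRNA the adjusted p alone. Each fit took only the groups compared. The fits were tested on simulated data. Alternatives were a pseudocount of 0.1, no filter, trimmed-mean scaling (trim 0.3), 1 fit of all 24 libraries, a replicate block, no trend, no minimum fold and leaving out each library.

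The 7 members, the pathway lists and the markers were chosen with earlier results of these data known. A gene of the activin and inhibin list is not reported here. Named genes are the members, H19, list genes that are receptors or partners of members or that passed in a siH19 comparison, and for each member the 2 genes of highest Pearson r. Promoter windows from RefSeq were used for 5 of the 7 members. Python 3.11.15 with numpy 2.4.6, pandas 2.3.3, matplotlib 3.10.9 and Biopython 1.88 was used for tables, figures and sequences.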

Additional observations from a re-analysis of the deposited data

Results flagged for a closer look

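*Il11* was the member whose siH19 libraries all lay on opposite sides of siCtrl in the 2 depots. Its difference between siH19 and siCtrl in log2(FPKM + 1) was 1.05 in BAT at d0 and -1.05 in vWAT at d0. The BAT value is one that chose the gene, and the difference between depots was not tested.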

How the results depend on the processing

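Counts of genes called between siH19 and siCtrl depended on the fit, and the cause was not tested. The filter, the fit of all 24 libraries, the replicate block, the trend and the minimum fold cannot change the size of a member's difference. Those alternatives bear only on calls and their counts. Without the filter on low values 124 genes passed in vWAT at d0 and 128 in BAT at d0, against 200 and 245. With all 24 libraries in 1 fit, 385 passed in vWAT at d0, 20 in vWAT at d3 (against 4) and 518 in BAT at d0. With no minimum fold, 395 passed in BAT at d0 and 2023 in BAT at d3 (against 1071). Leaving out 1 library gave 39 to 116 in vWAT at d0, 1 to 6 in vWAT at d3, 12 to 61 in BAT at d0, 638 to 926 in BAT at d3, 127 to 247 for the interaction, and 6612 to 6685 and 6866 to 6976 for d3 against d0 in vWAT siCtrl and siH19 cells. With the replicate block, 2 genes passed in vWAT at d0, 0 in vWAT at d3 (limma, 1280 genes at an unadjusted p under 0.05) and 2 in BAT at d0. The replicate numbers were not taken as a pairing, since deviations of same-numbered libraries correlated at only -0.143 to 0.088 and not every library correlated best with its own number. Of the 169 recomputed member differences in vWAT under alternatives other than leaving out a library, 1 gained a call (*Il11* at d0 with all 24 libraries, -1.05) and 1 changed sign (*Arhgef4*, d3 against d0 with siCtrl, -0.035 at a pseudocount of 0.1). Of the 186 with a library left out, 19 changed sign and none gained or lost a call. Those that changed sign ranged from -0.13 to 0.072 for *Hbegf*, -0.47 to 0.22 for *Arhgef4* and -0.12 to 0.18 for *Uchl1* in vWAT at d0, from -0.55 to 0.041 for *Uchl1* in vWAT at d3, from -0.42 to 0.29 for *Arhgef4* from d0 to d3 with siCtrl, and from -0.23 to 0.034 for *Tslp*, -0.42 to 0.32 for *Arhgef4* and -0.55 to 0.038 for *Uchl1* in the interaction. In BAT at d0, where no call was made, leaving out 1 library gave -0.17 to 1.10 for *Arhgef4* and 0.15 to 0.70 for *Uchl1*. The H19 call was lost with the replicate block in vWAT on both days. In BAT at d3, a pseudocount of 0.1 raised the differences of *Tslp* to 2.06, *Hbegf* to 1.44, *Inhba* to 1.40, *Arhgef4* to 3.04 and *Prl2c3* to 2.28. Levels under 1 FPKM, as those of *Il11*, *Hbegf* and *Tslp* in vWAT at d3, limit what could be detected.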
